A study of Bos taurus with 16 samples.

Results

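The proteasome is the barrel-shaped protease that takes apart proteins tagged with ubiquitin. Its 20S core consists of outer alpha rings and inner beta rings, and the cutting sites sit on PSMB5, PSMB6 and PSMB7. A 19S cap recognises, unfolds and feeds the substrate into the core. Cells exposed to interferon make the alternative catalytic subunits PSMB8, PSMB9 and PSMB10, which assemble into an immunoproteasome that produces peptides for antigen presentation, and the PSME1 and PSME2 activator is made with them. In skeletal muscle the proteasome is the main route by which myofibrillar proteins are degraded.

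Genes were taken as members by symbol alone: the numbered PSMA, PSMB, PSMC and PSMD genes together with the activator genes PSME1 to PSME4, the inhibitor PSMF1 and the assembly chaperones PSMG1 to PSMG4. The rule found 48 of the 34109 genes in the count table, and no measured value entered it. They comprised 8 genes of the 20S alpha ring, 7 of the constitutive beta ring, 4 immune and thymic beta subunits, 6 ATPases and 3 other subunits of the 19S base, 8 subunits of the 19S lid, 3 chaperones of cap assembly, 4 chaperones of core assembly, and 5 activators and inhibitors. No read was counted for PSMA8, an alpha subunit of germ cells, or for PSMB11, the beta subunit of the thymus, in any of the 16 libraries. A total of 3 counts over all libraries, the limit that a count of 0 allows, would correspond to 0.00338 counts per 1000000 (CPM). The other 46 members were measured in both muscles and entered every edgeR comparison.

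RNA came from the round and the sirloin muscle of 8 newborn Hanwoo calves, a Korean beef breed of Bos taurus. The dams of the 4 control calves were fed 100% of the nutritional requirement in mid to late gestation, and those of the 4 treated calves 150%. The calves themselves received no treatment, were male and were sampled at birth before colostrum, so that the 4 groups of 4 libraries (round control, round treated, sirloin control, sirloin treated) differed in muscle and maternal diet. Calves are named here by diet and by the replicate number of the labels, and the same calves gave both muscles.

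Libraries held 44473011 to 72446933 counts, of which the members took 0.300 to 0.454%. The labelled tissue matched its markers, with 10 muscle fibre genes summing to 47569 to 90422 TPM, the length-corrected measure of transcript level. Some libraries stood apart. The sirloin of treated calf 4 held 3777 TPM of 5 adipocyte markers, against at most 15.0 in any other library, and the round muscle of control calf 2 held 1518 TPM of 6 fibroblast markers against at most 639 elsewhere. The round muscle of treated calf 2 had the lowest CPM of 12 of the 31 constitutive core and cap subunits, and that of treated calf 1 the highest of 15. Among the sirloin libraries, however, that of treated calf 2 had the highest CPM of 13 of the 31. For such counts of the 31 subunits, here and below, the share of all genes is not given. In bulk tissue, fewer cells of a type and less RNA per cell cannot be told apart.

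Levels were compared between genes in the authors' TPM, which is corrected for transcript length. The constitutive subunits of the core and cap were abundant and lay within a narrow range. Their mean TPM over 16 libraries ran from 55.2 ± 9.15 (SD, n = 16) for PSMD14, the deubiquitinating enzyme of the lid, to 240.2 ± 52.9 for PSMA7 of the alpha ring. Within the alpha ring PSMA4 was lowest at 77.8 ± 10.4 TPM. In the beta ring the range was narrower, from 109 ± 16.1 TPM for PSMB5, which carries the chymotrypsin-like site, to 210.3 ± 28.7 for PSMB4. PSMB6, with the caspase-like site, averaged 142 ± 17.2 TPM, and PSMB7, with the trypsin-like site, averaged 120.2 ± 10.6.

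Cap subunits lay in the same range. Among the ATPases, which unfold the substrate, PSMC4 was lowest at 62.3 ± 10.3 TPM and PSMC5 highest at 215 ± 44. The scaffold PSMD1 (71.0 ± 13.3) and the ubiquitin receptor PSMD4 (155 ± 29.8) bounded the rest of the base, and PSMD7, the partner of PSMD14, was the highest of the lid at 149 ± 28.1. Assembly chaperones do not stay in the finished particle, and 6 of the 7 averaged less than PSMD14, the lowest constitutive subunit. The cap chaperones ran from 20.6 ± 5.13 TPM for PSMD10 to 27.7 ± 6.33 for PSMD5, and the core chaperones from 18.9 ± 4.24 for PSMG3 to 64.7 ± 15.2 for PSMG4.

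Levels of the activators and the inhibitor varied to different degrees between libraries. PSMF1, an inhibitor of the core, averaged 21.8 ± 8.54 TPM and PSME1 55.3 ± 40.1. PSME4, which encodes the single-chain activator PA200, averaged 54.0 ± 27.1 TPM, and PSME3 33.9 ± 6.17. Over the 31 constitutive subunits the coefficient of variation of CPM across libraries was 11.2% (PSMB7) to 27.0% (PSMD12), with a median of 16.5%. The median over the 5785 genes with a mean of at least 10 TPM was 25.1%. PSME3 was within the constitutive range at 16.1%, PSMF1 stood at 32.2% and PSME4 at 47.5%, and for PSMB8, PSMB9, PSMB10, PSME1 and PSME2 it was 62.5 to 176%.

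**Figure D1:**
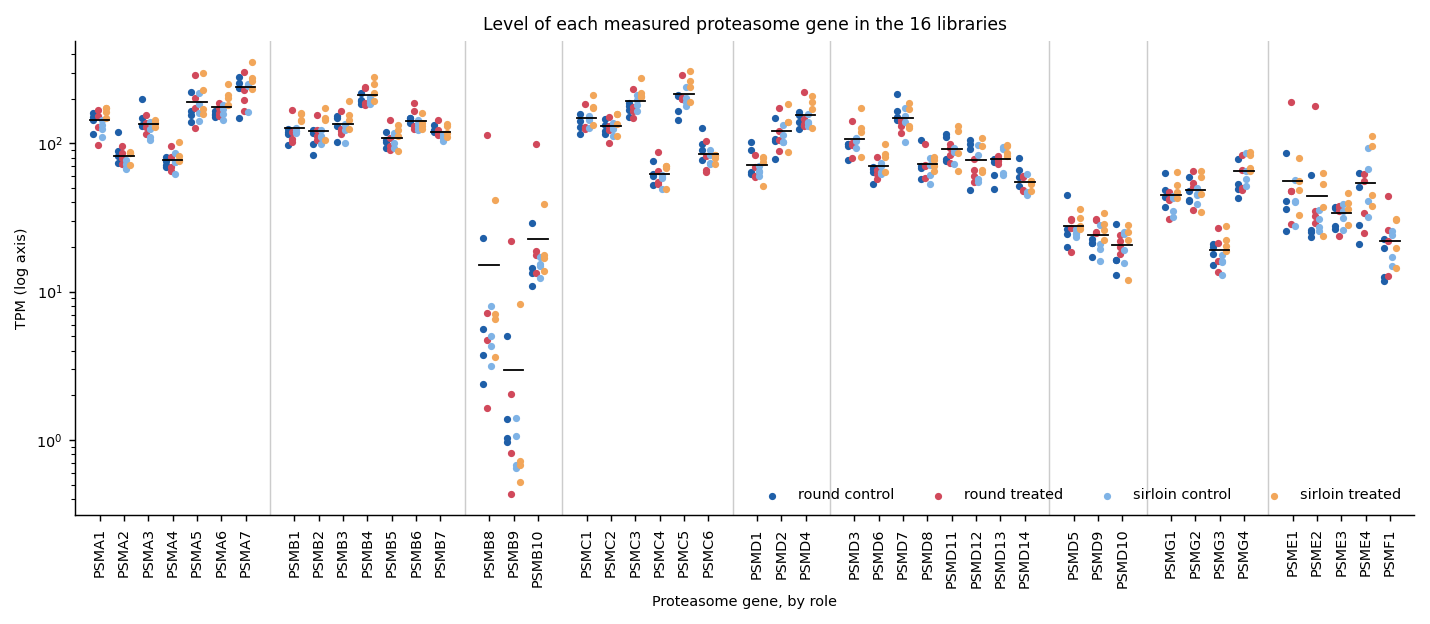
Level of each of the 46 measured proteasome genes in TPM (log axis), grouped by role from the alpha ring at the left to the activators and inhibitor at the right, with 1 point per library coloured by muscle and diet and a black line at the mean of 16 libraries. The constitutive core and cap genes lie between means of 55.2 and 240.2 TPM, and PSMB8, PSMB9 and PSMB10 lie lower with single libraries far above the rest.

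The immune subunits were low in most libraries and high in both muscles of treated calf 2 and in the round muscle of control calf 1. In round muscle PSMB8, the immune counterpart of PSMB5, was at 23.0, 5.61, 2.37 and 3.72 TPM in control calves 1 to 4 and at 7.20, 114, 4.74 and 1.63 TPM in treated calves 1 to 4. In sirloin muscle it was at 8.0, 5.03, 4.30 and 3.15 TPM in the controls and at 6.49, 41.5, 3.61 and 7.11 TPM in the treated calves. Treated calf 2 was therefore highest in both muscles, control calf 1 came next in each, and the other 12 libraries lay between 1.63 and 7.20 TPM.

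PSMB9, the counterpart of PSMB6, was high in the same libraries at a lower level. Round muscle held 5.04, 1.38, 0.969 and 1.02 TPM in the controls and 2.02, 21.9, 0.816 and 0.433 TPM in the treated calves. Sirloin held 1.41, 1.07, 0.677 and 0.648 TPM in the controls and 0.522, 8.27, 0.678 and 0.722 TPM in the treated calves. The 1.41 TPM in the sirloin of control calf 1 was within the 0.433 to 2.02 TPM of the other 12 libraries. For PSMB10, the counterpart of PSMB7, the round muscle of treated calf 2 stood at 99.7 TPM, its sirloin at 39.0 and the round muscle of control calf 1 at 29.1. The sirloin of control calf 1, at 15.0 TPM, was within the 10.9 to 18.9 TPM of the other 12 libraries.

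PSME1 and PSME2, which together form the PA28 activator, were also highest in the round muscle of treated calf 2, at 191 and 179 TPM. The 12 libraries of the other 6 calves held 25.6 to 56.0 TPM of PSME1 and 23.4 to 53.4 TPM of PSME2. In that library PSMB8 was 25.3-fold, PSMB9 28.5-fold, PSMB10 6.70-fold, PSME1 4.73-fold and PSME2 6.37-fold above the median of those 12 libraries. The constitutive counterparts PSMB5, PSMB6 and PSMB7 were 0.820, 0.930 and 0.952 times it. PSME3, which forms the nuclear PA28 gamma activator, had its lowest level of all libraries there, at 23.6 TPM, and PSMF1 its highest, at 44.1 TPM.

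**Figure D2:**
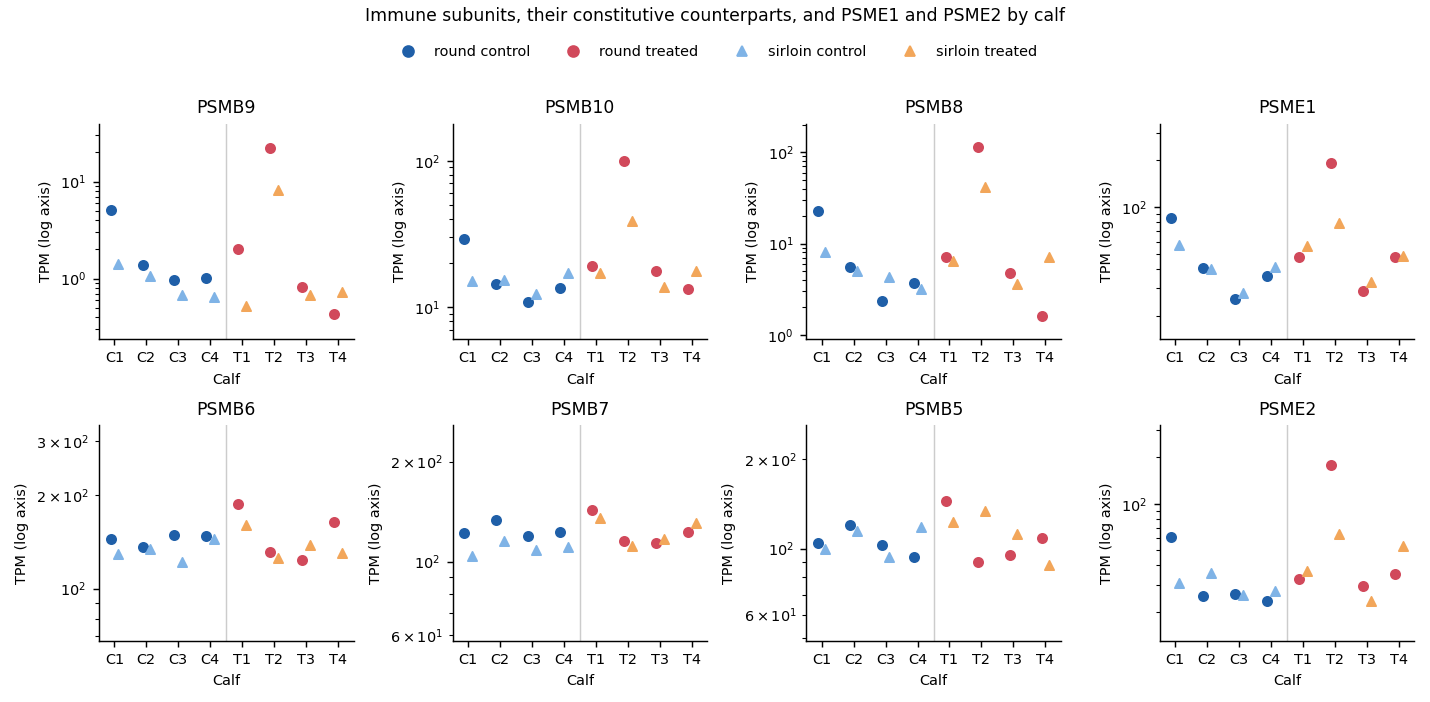
TPM (log axes) of PSMB9, PSMB10 and PSMB8 above the constitutive subunits PSMB6, PSMB7 and PSMB5 that they replace, with PSME1 and PSME2 at the right, for control calves C1 to C4 and treated calves T1 to T4, with circles for round and triangles for sirloin muscle. The immune subunits stand highest in calf T2, at 114 TPM of PSMB8 in round muscle. The constitutive subunits do not in round muscle, but in sirloin PSMB5 is highest in T2, at 134 TPM.

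Genes of antigen processing and interferon response also stood high in the round muscle of treated calf 2, but not all did so in its sirloin or in control calf 1. In ARS-UCD2.0, the reference assembly whose gene order was used, PSMB8, TAP1 and PSMB9 are next to each other, and TAP2 and PSMB8 have 1 gene between them, while PSME2 and PSME1 have 1 gene between them. TAP1, a subunit of the peptide transporter of the endoplasmic reticulum, was at 28.5 TPM in round and 14.7 TPM in sirloin muscle of treated calf 2, and at 8.94 and 6.18 TPM in control calf 1, against 0.818 to 2.09 TPM in the other 12 libraries. B2M, the light chain of MHC class I, was at 1321, 671, 622 and 346 TPM in those libraries against 114 to 183 TPM. TAPBP was at 71.2 TPM in the round muscle of treated calf 2. Its 38.0 TPM in the sirloin of that calf and 42.6 TPM in the round muscle of control calf 1 lay within the 16.2 to 45.9 TPM of the other 12 libraries. TAP2 in the sirloin of control calf 1, at 2.67 TPM, also lay within their range of 1.01 to 2.88 TPM. Of 16 measured genes of this list, 14 were highest in the round muscle of treated calf 2. The share of all genes highest in that library is not given here, and the list was chosen with earlier results of these data known.

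Markers of immune cells were also high in treated calf 2. The 11 markers summed to 11.9 to 191 TPM in round control, 12.5 to 712 in round treated, 18.6 to 55.6 in sirloin control and 21.7 to 315 in sirloin treated libraries, and 9 of the 11 were highest in a library of treated calf 2. For that count, too, the share of all genes is not given here. CD74, the MHC class II chaperone, made up most of the sum in treated calf 2. Without it the sum was 24.5 TPM in round and 33.3 TPM in sirloin muscle of treated calf 2, 9.64 and 6.01 TPM in control calf 1, and 4.94 to 16.3 TPM in the other 12 libraries. Control calf 1 was thus within the range of those 12 libraries once CD74 was left out. PTPRC, the pan-leukocyte marker, was at 1.35 TPM in round and 1.27 TPM in sirloin muscle of treated calf 2 and at most 0.824 TPM elsewhere. None of the 11 was at 0 in all libraries. The part of immune cells in the levels of the immune subunits was not tested.

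Each immune subunit was set against the constitutive subunit it replaces, to ask whether maternal diet or muscle shifted the balance. PSMB8 made up 1.48 to 55.9% of the summed TPM of PSMB8 and PSMB5, with a median of 4.61%. PSMB10 made up 8.37 to 46.4% of its pair, with a median of 11.7%, and PSMB9 0.263 to 14.3%, with a median of 0.669%. The highest share of each pair was in the round muscle of treated calf 2, where PSMB8 exceeded PSMB5.

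The log2 ratio of PSMB8 to PSMB5 was -4.17 ± 1.39 (SD, n = 4) in round control and -3.59 ± 2.74 in round treated calves, a difference of 0.58 (two-sided exact permutation test, p = 0.743). In sirloin it was -4.45 ± 0.65 against -3.63 ± 1.40, a difference of 0.82 (p = 0.343, exact permutation test). For PSMB10 to PSMB7 the diet difference was 0.73 in round and 0.27 in sirloin, and for PSMB9 to PSMB6 it was 0.25 and 0.36. The largest muscle difference was for PSMB9 to PSMB6, lower in sirloin by a mean log2 ratio difference of -0.66 and in 7 of 8 calves (exact sign-flip permutation test, p = 0.102). None of the 9 ratio tests passed, all with an adjusted p of 0.886. Before adjustment, the smallest p the design allowed was 0.0286 between diets and 0.00781 between muscles. Adjusted over 9 tests, not even a ratio at that smallest p could have passed by itself. The lack of a pass therefore does not decide whether diet or muscle shifted the balance. No ratio reached the smallest p allowed, and the lowest unadjusted p of the permutation tests was the 0.102 given above. Without treated calf 2 the diet difference of PSMB8 to PSMB5 in round turned to -0.73.

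In round muscle, no proteasome gene was called for maternal overnutrition. None of the 46 members passed an adjusted p of 0.05 (edgeR quasi-likelihood test, Benjamini-Hochberg over 21677 genes, of which 0.0185% were called), and none reached an unadjusted p of 0.05, which 4.41% of all genes did. DESeq2 (0.208% of all genes called) and limma-voom (0.00461%) called no member, but DESeq2 gave no p for PSMB8, PSMB9 and PSME2. In no member did the CPM of the 4 control and the 4 treated calves fail to overlap, which happened for 1.76% of all genes. The log2 fold change of treated over control was positive for 20 and negative for 26 members, with a median of -0.01 beside 0.02 over all genes. The members' median was -0.17 without treated calf 1 and 0.03 without treated calf 2, the lowest and highest with 1 calf left out.

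The smallest unadjusted p belonged to the lid subunit PSMD7. Its CPM, normalized by trimmed mean of M values (TMM), was 109, 93.8, 157 and 125 in the controls and 88.9, 70.8, 95.7 and 96.0 in the treated calves. Treated calves 1 and 2 lay below every control, and the groups overlapped. The log2 fold change was -0.44 (SE 0.23, edgeR adjusted p = 0.864). The lid subunit PSMD12 stood at -0.49 (SE 0.27), the ATPase PSMC6 at -0.41 (SE 0.26), PSMF1 at 0.54 (SE 0.33) and the cap chaperone PSMD9 at 0.35 (SE 0.23), each with an adjusted p of 0.864.

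By role, the estimates in round muscle were negative for 5 of 7 alpha, 5 of 7 constitutive beta, 5 of 6 ATPase and 6 of 8 lid genes. Over the 31 constitutive subunits, 22 were negative and the median was -0.02 on counts, but 0.04 on log2(TPM + 1), so no direction is given for them. PSMB5, PSMB6 and PSMB7 were at -0.02 (SE 0.23), -0.02 (SE 0.23) and -0.10 (SE 0.21).

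The immune members had the largest estimates and the largest errors in round muscle. PSMB8 was at 17.5, 3.41, 1.77 and 2.86 CPM in the controls and 5.05, 68.4, 3.34 and 1.11 CPM in the treated calves, a log2 fold change of 1.63 (SE 1.11, adjusted p = 0.864). PSMB9 was at 1.33 (SE 1.02) and PSMB10 at 0.60 (SE 0.48), with adjusted p of 0.869 and 0.884. Leaving out treated calf 2 turned these to -0.99, -0.99 and -0.21, and those of PSME2 and PSME1 from 0.75 and 0.57 to -0.22 and -0.26. The positive estimates rested on 1 calf.

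In sirloin muscle, again, none of the 46 members passed the adjusted threshold (edgeR, 0.00918% of 21776 genes called), and none reached an unadjusted p of 0.05 (3.91% of all genes). DESeq2 (0.0597% of all genes called) and limma-voom (0%) called no member, and by DESeq2 1 member, PSMB8, had an unadjusted p under 0.05, at 0.0437, against 3.21% of all genes. PSMB8 was at 5.98, 3.28, 2.99 and 2.26 CPM in the controls and 4.08, 24.1, 2.29 and 4.82 CPM in the treated calves. Its log2 fold change was 1.28 (SE 0.67, edgeR adjusted p = 0.876) and 0.03 without treated calf 2. PSMB9 stood at 1.10 (SE 0.83), which turned to -0.66 without that calf, and PSMB10 at 0.19 (SE 0.26).

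PSME2 was at 0.42 (SE 0.26) and the core chaperones PSMG3 and PSMG1 at 0.32 (SE 0.23) and 0.24 (SE 0.21) in sirloin, none past the threshold. PSMB5, PSMB6 and PSMB7 were at -0.07 (SE 0.19), -0.11 (SE 0.18) and -0.01 (SE 0.17). The structural beta subunit PSMB1 was the 1 member of 46 whose groups did not overlap, against 1.68% of all genes. It was at 67.5, 61.1, 65.3 and 65.3 CPM in the controls and at 74.8, 72.6, 68.5 and 68.5 CPM in the treated calves, a log2 fold change of 0.13 (SE 0.16, adjusted p = 0.974).

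Estimates in sirloin were positive for 36 of 46 members, among them 7 of 7 alpha ring genes, 4 of 4 core chaperones and 5 of 5 activators and inhibitors, with a median of 0.10 beside 0.03 over all genes. The size depended on the scale. On log2(TPM + 1) 45 of 46 were positive with a median of 0.25 beside 0.06, and 5 members (PSMA1, PSMA6, PSMB1, PSMG1 and PSMG3) were higher at an unadjusted p under 0.05 by limma, which 5.04% of all genes reached in either direction, with the lowest adjusted p at 0.856. The summed level of the 14 constitutive core genes was 1859 ± 149.7 TPM (SD, n = 4) in sirloin control and 2231 ± 239 TPM in sirloin treated calves, but 1116 ± 38.6 and 1184 ± 108 CPM. In round muscle it was 1946 ± 119 and 1998 ± 286 TPM. For the 17 cap subunits the sirloin sums were 1780 ± 73.8 and 2083 ± 344 TPM, and the round sums 1826 ± 210.5 and 1826 ± 272 TPM. In CPM the cap sums were 1817 ± 57.0 and 1879 ± 284 in sirloin, and 1924 ± 118 and 1792 ± 333 in round. The sirloin of treated calf 4, with its adipocyte markers, held the lowest sirloin CPM of 15 of the 31 constitutive subunits, and the median over the members was 0.16 without that calf. Without treated calf 2 it was 0.03, beside 0.02 over all genes.

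**Figure D3:**
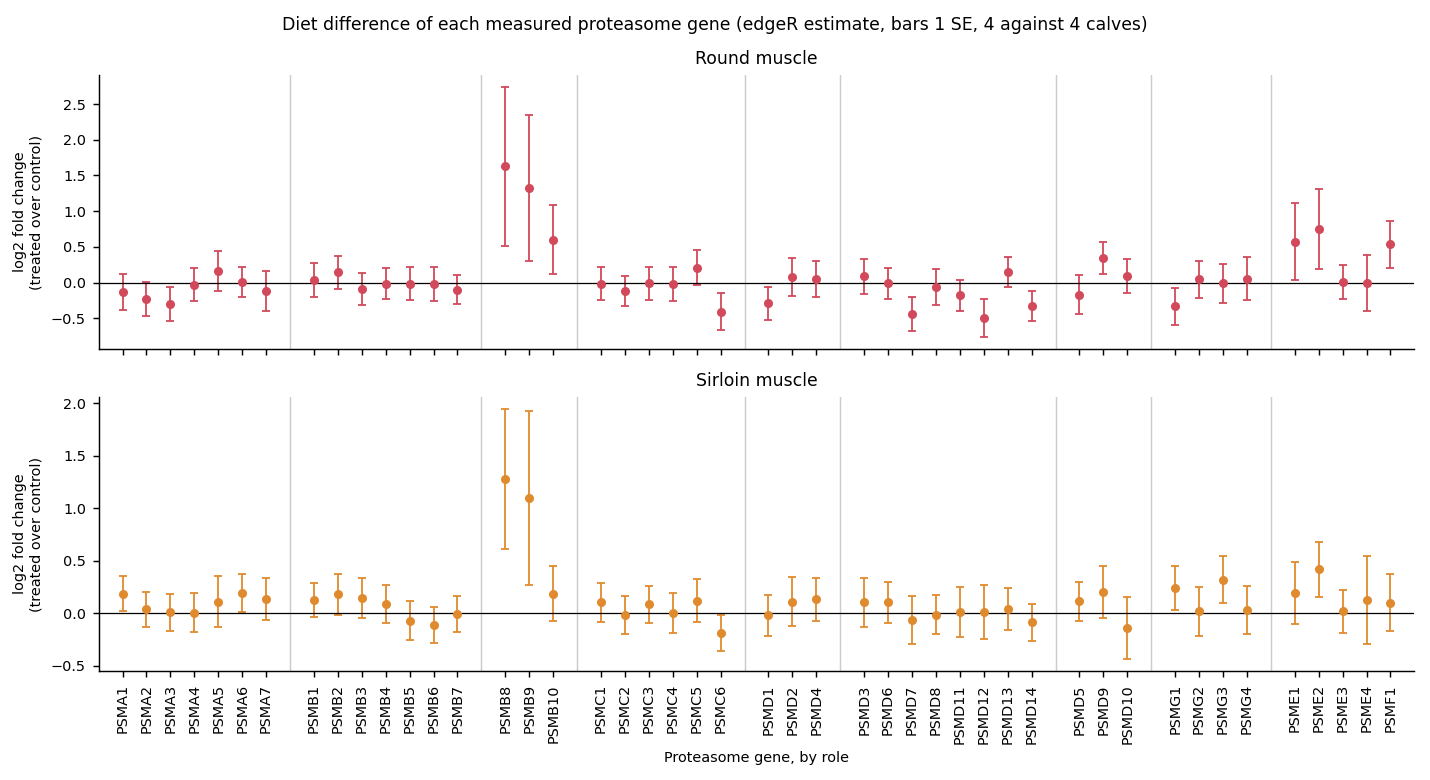
Log2 fold change of treated over control calves for each of the 46 measured proteasome genes in round (top) and sirloin (bottom) muscle, as edgeR estimates on counts with bars of 1 SE, grouped by role. Most points lie near 0, and the largest estimates, 1.63 and 1.28 for PSMB8, have errors of 1.11 and 0.67.

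With both muscles of a calf added, so that each calf counted once, no member passed (edgeR, 0.00437% of 22877 genes called) and none reached an unadjusted p of 0.05 (3.85% of all genes). DESeq2 (0.162%) and limma-voom (0%) called no member either. The smallest p belonged to PSMC6, at a log2 fold change of -0.34 (SE 0.20, adjusted p = 0.933), followed by PSMB8 at 1.5 (SE 0.91), PSME2 at 0.60 (SE 0.41), PSMD7 at -0.27 (SE 0.19) and PSMD14 at -0.23 (SE 0.17). PSMB9 and PSMB10 were at 1.26 (SE 0.94) and 0.41 (SE 0.36), and PSMB5, PSMB6 and PSMB7 at -0.06, -0.08 and -0.07. PSMB8 turned to -0.48 and PSMB9 to -0.82 without treated calf 2.

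The diet difference of a gene in sirloin was tested directly against that in round. This fit had no term for the calf, so its SEs include the spread between calves. With the calf as a block, no member passed the adjusted threshold either (edgeR, 0.00437% of all genes called). No member differed at an adjusted p of 0.05 (edgeR, 0% of 22877 genes called) or at an unadjusted one (2.78% of all genes), and DESeq2 (0%) and limma-voom (0%) also called no member. The estimates were led by the core chaperone PSMG1, at a log2 difference of 0.60 (SE 0.32, adjusted p = 1.00), and by PSMD12 at 0.53 (SE 0.37), PSMD7 at 0.40 (SE 0.31), PSMA1 at 0.35 (SE 0.27) and PSMA3 at 0.33 (SE 0.27). Of the 31 constitutive subunits 26 were more positive in sirloin, with a median of 0.13 beside 0.04 over all genes, and the median was 0.02 without treated calf 2, 0.26 without treated calf 1 and 0.22 without treated calf 4. PSMB8, PSMB9 and PSMB10 were at -0.33 (SE 1.44), -0.21 (SE 1.46) and -0.39 (SE 0.60), and PSMB5, PSMB6 and PSMB7 at -0.03, -0.06 and 0.12.

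Sirloin was then compared with round muscle over all 16 libraries. No member passed the adjusted threshold (edgeR, 0.0612% of 22877 genes called), and 1 had an unadjusted p under 0.05, against 6.33% of all genes. DESeq2 (0.367%) and limma-voom (0.0918%) called no member. That 1 gene was PSMD14, at a log2 difference of sirloin over round of -0.27 (SE 0.12, adjusted p = 0.777). Since both muscles came from the same calves, a fit with the calf as a block (paired muscles) was set beside it. There 1 member was higher (5.56% of all genes) and 4 were lower (5.6%) in sirloin at an unadjusted p under 0.05, 5 of 46 against 11.2% of all genes in either direction, and again none passed the adjusted threshold, which 0.476% of all genes did.

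The member with the smallest p in the paired fit was PSME4, whose product PA200 caps the core without ATP. In round muscle it was at 100.4, 109, 289.7 and 243 CPM in the controls and 145, 213, 263 and 108 CPM in the treated calves. In sirloin the same calves gave 193, 131, 411 and 279.9 CPM and 175, 355, 433 and 148 CPM. Every calf was higher in sirloin, in CPM as in TPM, and the calves also differed widely within each muscle. The log2 difference was 0.51 with the block (SE 0.11, edgeR adjusted p = 0.0788) and 0.53 without it (SE 0.31). A higher CPM in sirloin in 8 of 8 calves was found for 1.34% of all genes.

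PSMB7 went the other way. It was at 79.1, 70.3, 73.6 and 79.3 CPM in round muscle of the controls and 82.5, 58.8, 64.8 and 71.7 CPM in that of the treated calves, and at 65.8, 64.0, 64.7 and 62.5 CPM and 70.7, 55.3, 61.3 and 69.2 CPM in sirloin. It was lower in sirloin in 8 of 8 calves, as were 1.15% of all genes, with a log2 difference of -0.17 (SE 0.09 with the block, adjusted p = 0.511), but in TPM it was lower in 6 of 8.

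The alpha subunits PSMA2 and PSMA3 stood at -0.25 (SE 0.11) and -0.23 (SE 0.10) with the block, and PSMD14 at -0.26 (SE 0.10), with adjusted p of 0.434, 0.422 and 0.352. PSMA2 was lower in sirloin in 7 of 8 calves and PSMA3 and PSMD14 in 6 of 8. PSMB6 was at -0.22 (SE 0.13) and PSMB5 at -0.05 (SE 0.14) without the block. Of the immune subunits PSMB9 was lower in sirloin in 7 of 8 calves, at -0.81 with the block (SE 0.28, adjusted p = 0.269) and -1.18 without it (SE 0.73). PSMB8 stood at -0.98 (SE 0.73) without the block and -0.24 (SE 0.35) with it, and PSMB10 at -0.43 (SE 0.30) and -0.27 (SE 0.18).

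**Figure D4:**
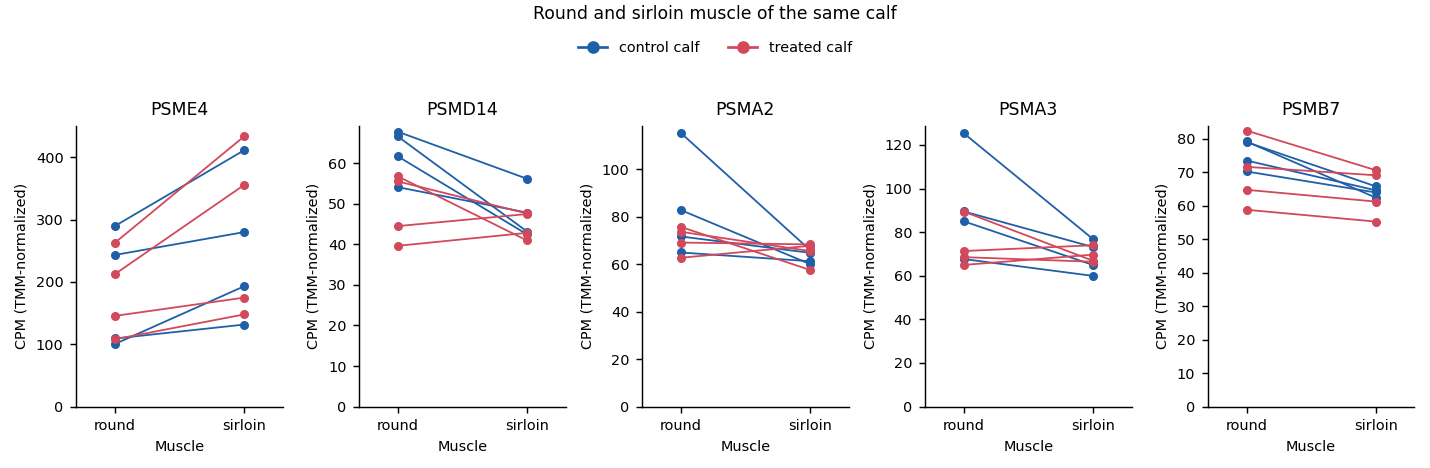
TMM-normalized CPM of PSME4, PSMD14, PSMA2, PSMA3 and PSMB7 in the round and sirloin muscle of each calf, joined by a line, with control calves in blue and treated calves in red. PSME4 is higher and PSMB7 lower in sirloin in all 8 calves (PSMB7 in 6 of 8 in TPM), and PSMA2, PSMA3 and PSMD14 are lower in 7, 6 and 6. PSMB9, also lower in sirloin in 7 calves, had a smaller adjusted p than PSMB7 in the paired edgeR fit and is not drawn.

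Other genes of the pathway were read from 4 lists, and none of their genes passed the adjusted threshold in any of the 5 comparisons (edgeR). Of 13 proteasome partners outside the symbol rule, 1 reached an unadjusted p under 0.05 in round muscle. This was ZFAND2A, a stress-induced protein that binds the cap, at a log2 fold change of -2.06 (SE 0.63, adjusted p = 0.864), with 2.15, 3.36, 2.25 and 16.1 TPM in the controls and 1.66, 1.96, 1.77 and 1.08 TPM in the treated calves. Control calf 4 stood far above the other round libraries, and leaving that calf out gave -0.75 (SE 0.35). In sirloin none of the 13 reached that level, and the core maturation factor POMP was at -0.39 (SE 0.29) in round and -0.17 (SE 0.19) in sirloin.

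Among 10 genes that control proteasome gene transcription, such as NFE2L1, and 15 measured ubiquitin genes and carriers, none reached an unadjusted p under 0.05 in either muscle. The medians of these lists were -0.01 and -0.03 in round and 0.01 and -0.0042 in sirloin. Of the 16 antigen processing and interferon genes, 14 were positive in round and 11 in sirloin, with medians of 0.51 and 0.23. Without treated calf 2, 2 and 3 of the 16 were positive and the medians were -0.54 and -0.21. With 1 other calf left out the medians ran from 0.34 (without control calf 3) to 0.92 (without control calf 1) in round and from 0.17 (without control calf 4) to 0.47 (without treated calf 4) in sirloin, and limma-voom gave 0.11 and 0.01 over all calves. UBE2L6, the carrier enzyme of ISG15, was at 1.12 (SE 0.43, edgeR adjusted p = 0.876) in sirloin.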

How the data were processed

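RNA-seq libraries from 8 round and 8 sirloin muscles were analysed, grouped by tissue and treatment as given in the labels. The proteasome genes and all gene lists were chosen with earlier results of these data known. The deposited read counts are whole numbers per NCBI gene ID, without normalization. The deposited normalized values were used as the authors' TPM, corrected for transcript length and library size. The submitters' processing notes name FastQC, Trimmomatic, STAR, featureCounts and DESeq2 with ARS-UCD1.2 and poly(A) selection, whereas the paper's methods name HISAT2, Bowtie2 and StringTie after rRNA depletion, and which pipeline made the files is not given in the sources used here. The authors' comparison tables hold their fold changes and p-values and were not used. Symbols came from a RefSeq gene table (ARS-UCD2.0), which named 30762 of 34109 IDs, and whose positions were used only for the order of genes. No strand setting for counting is stated.

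Counts were tested with edgeR 4.0.16 in R 4.3.3 (TMM, glmQLFit, glmQLFTest, two-sided, Benjamini-Hochberg) over all genes that had 1 count or more in at least 1 of the libraries tested, without covariates. Diet was tested in each muscle by itself, over both muscles of a calf added, and as a difference between muscles, and sirloin was compared with round over 4 groups of 16 libraries. SEs were derived from the log2 fold change and the F statistic. DESeq2 1.42.0, limma-voom (limma 3.58.1), limma on log2(TPM + 1) and log2(TPM + 0.1), other scalings and filters, a replicate block and leaving out each calf were alternatives. DESeq2 gave no p for PSMB8, PSMB9 and PSME2 in round. Ratios of immune to constitutive subunits used exact permutation tests over calves. CPM (counts per 1000000) in the text is TMM-normalized over 16 libraries.

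Depth was 44473011 to 72446933 counts per library, and the limit for a count of 0 covers counting error only. Replicates are separate calves. No 2 of the libraries held identical counts. The muscles of a calf were paired by the number that the round and sirloin labels share, which was taken to mark the calf. Their deviations from group means correlated at 0.243 to 0.589, against at most 0.101 for muscles of different calves. Named genes were, in each comparison, the 5 members of smallest p, the catalytic subunits and their immune counterparts, the highest and lowest of each role, and up to 3 genes of each other list. PSMA2, PSMA3, PSMB1 and PSMB7 in the muscle or sirloin comparison, PSME1, PSME3, PSME4 and the genes that stood high with the immune subunits were also named after their values were seen. One gene of the antigen processing and interferon list is not reported here by name.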

Additional observations from a re-analysis of the deposited data

Results flagged for a closer look

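In 184 sets of 4 calves (46 members in 4 groups), 15 CPM values stood apart from the other 3 by Dixon's test at 95%. The nominal rate of 1 in 20, or 9.2, holds for independent, normally distributed values. The share flagged over all genes is not given here, so the 15 are not read as an excess. The round muscle of treated calf 2 held 6 of them. There PSMB8 was at 68.4 CPM, PSMB9 at 9.26, PSMB10 at 70.8, PSME1 at 102.9 and PSME2 at 84.5, each above the other treated calves, and PSME3 at 46.7 was below them. In the sirloin of that calf PSMB8 at 24.1 CPM and PSMB9 at 3.48 CPM were high. In the round muscle of control calf 1 PSMB8 was high at 17.5 CPM, PSMB9 at 2.74 and PSME2 at 39.6. The remaining values were spread over other calves. PSMB3 was high at 75.4 CPM in the round muscle of treated calf 1, PSMG2 was high at 37.2 CPM in that of control calf 3 and PSMB6 was low at 60.4 CPM in that of control calf 2. PSMD1 was low at 89.4 CPM in the sirloin of treated calf 4, the library with high adipocyte markers.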

How the results depend on the processing

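No member passed the adjusted threshold in any of the 5 comparisons under any scaling, filter, tool or replicate block that was run, nor with any calf left out (0 in each, lowest and highest). At an unadjusted p the count for sirloin against round was 1, and 5 with the calf as replicate block, and it was 0 in the other comparisons. Leaving out 1 calf moved that count to at most 4 in round (without control calf 1), 2 in sirloin (without treated calf 3), 2 between muscles (without control calf 2) and 1 over both muscles and for the diet difference between muscles (each without control calf 1), and to 0 between muscles at the lowest (without control calf 3 among others). Apart from the block, the other settings gave at most 1 in round, 5 in sirloin, 2 between muscles, 2 over both muscles and 1 for the diet difference between muscles. Limma on log2(TPM + 1) gave these counts, and the shares of all genes there were 3.68%, 5.04%, 6.12%, 4.59% and 1.33%, in that order. For the fits leaving out 1 calf the share of all genes is not given here, and those counts are not read as a result. Of 836 gene values under the alternatives, 58 changed sign, 48 of them by less than the spread between calves.

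Leaving out 1 calf, log2 fold changes in round ranged from -0.99 to 2.87 for PSMB8, -0.99 to 2.32 for PSMB9 and -0.21 to 0.90 for PSMB10, in sirloin from -0.66 to 1.42 for PSMB9, and over both muscles from -0.48 to 2.32 for PSMB8 and -0.82 to 1.99 for PSMB9, each lowest without treated calf 2 and, in round and over both muscles, highest without control calf 1. Log2 ratio differences between diets ranged from -0.97 to 1.02 (PSMB9 to PSMB6, round, -0.02 without control calf 3), -0.61 to 0.84 (PSMB9 to PSMB6, sirloin), -0.10 to 0.43 (PSMB10 to PSMB7, sirloin) and -0.73 to 1.40 (PSMB8 to PSMB5, round). The ratio differences of sirloin minus round ranged from -0.22 to 0.032 (PSMB10 to PSMB7) and -0.53 to 0.11 (PSMB8 to PSMB5, 0.02 without control calf 1). PSMB7 turned positive on log2(TPM + 1) and log2(TPM + 0.1), at 0.16 and 0.17 in sirloin and 0.072 and 0.073 over both muscles. On log2(TPM + 0.1) the median over all genes in sirloin was 0.14, against 0.03 on counts. The cause was not tested.

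The constitutive core sums, in CPM in place of TPM, were 1217 and 1154 in round control and treated and 1116 and 1184 in sirloin. CPM is not divided by length and was TMM-normalized. In round the treated mean was the lower one in CPM and the higher one in TPM, and the cause was not tested. The same replicate number in the 2 diets marked different calves, whose deviations correlated at -0.17 to 0.20, and that block called no member. A planned search for promoter motifs was not run, since no promoter sequence was used here. Depth limits PSMA8 and PSMB11 to the bound given above, and the other members had counts in every library.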
